A study of Homo sapiens with 9 samples.

Results

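The genes described here are 9 of the 21619 in each count table: F3, TFPI, TFPI2, THBD, PROCR, PLAU, PLAUR, PLAT and SERPINE2. They encode tissue factor, the Kunitz-type inhibitors TFPI and TFPI2, the protein C pathway receptors THBD and PROCR, and 4 proteins of plasminogen activation. The list was chosen by pathway and selected on values of the comparison with MSC against without MSC in these same tumours, so the differences of these 9 genes between the groups are a description and support nothing. The samples were 9 xenografts of MDA-MB-231, an established triple-negative human breast cancer line, grown in the mammary fat pad of mice. In 5 tumours (M1, M6, M7, M10, M15) the cancer cells went in together with mesenchymal stem cells (MSC) from human bone marrow, in equal numbers, and in 4 tumours (A9, A11, A12, A13) they were injected without MSC. In both groups the cancer cells carried ribosomal protein L10a fused to EGFP, each tumour came from its own mouse, and tumours were taken 3 weeks after injection. Polysomes were pulled down from whole-tumour lysate with beads against the tag (translating ribosome affinity purification), so the RNA sequenced was polysome-associated RNA of tagged cells plus any carry-over. The sources used here give neither the mouse strain nor the MSC donors, and all tumours come from 1 tagged line.

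Tissue factor is the membrane receptor that starts clotting: it binds factor VIIa, and the complex activates factor X, which leads to thrombin and fibrin. TFPI blocks the tissue factor and factor VIIa complex, and thrombomodulin (THBD) and the endothelial protein C receptor (PROCR) turn thrombin towards activation of the anticoagulant protein C. Plasminogen is cut to plasmin, the protease that dissolves fibrin, by urokinase (PLAU), which is held at the cell surface by its receptor PLAUR, and by tissue plasminogen activator (PLAT). SERPINE2 (protease nexin-1) inhibits both activators. Breast cancer cells of the mesenchymal kind are known for strong tissue factor and urokinase expression.

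Gene totals ran from 29749909 to 50639082 counts with MSC and from 24616792 to 65275226 counts without MSC, and each of the 9 genes had between 264 and 27880 counts in every tumour. RPL10A, the gene fused to the tag, averaged 2302 ± 418.6 CPM with MSC and 1953 ± 118.9 CPM without MSC (SD, n = 5 and n = 4; CPM is a gene's count scaled to the size of its library), a log2 difference of 0.24 ± 0.14 (SE, edgeR adjusted p = 0.314). M15 was the lowest of all tumours for RPL10A, at 1576 CPM, and without M15 the log2 difference was 0.34 and passed (edgeR adjusted p = 0.0311). All 7 markers of the cancer line were detected in every tumour, from EGFR at 7.20 to 21.3 CPM to VIM at 6742 to 12516 CPM, and ESR1, PGR and CDH1, which the line lacks, were at most 0.208 CPM. Of these 7 markers, CD44, EGFR and AXL were called higher with MSC and S100A4 lower (log2 differences of 0.61, 0.90, 0.53 and -0.52). Of 10 endothelial markers, 6 were under 1 CPM in every tumour, and the list summed to 42.3 to 56.3 CPM with MSC and 39.7 to 58.8 CPM without MSC. Most of that sum was ROBO4 (26.9 to 45.2 CPM), and PECAM1 was lower with MSC, at 4.43 CPM against 8.50 CPM on average (log2 difference -0.94, edgeR adjusted p = 0.00745). The 9 leukocyte markers summed to 139.9 to 209.3 CPM with MSC and 96.1 to 139.4 CPM without MSC, so every tumour with MSC was higher. Most of it was CD68 (log2 difference 0.52, edgeR adjusted p = 0.0371), while 4 of the 9 were under 1 CPM in every tumour. The other tested leukocyte markers did not pass. CSF1R, CD14 and LYZ had log2 differences of 0.01, -0.45 and -0.82 (edgeR adjusted p = 0.988, 0.726 and 0.209). Tumour M15 stood apart for fibroblast and MSC markers, whose 11 genes summed to 116.6 CPM there, 16.6 to 32.4 CPM in the other tumours with MSC, and 12.3 to 21.0 CPM without MSC. The matrix proteoglycan DCN was at 18.9 CPM in M15 and at or under 0.207 CPM in all other tumours. Of the 6 tested genes of this list, 1 was called higher and 0 lower. It was COL1A2, which averaged 3.13 CPM with MSC and 0.580 CPM without MSC (log2 difference 2.41, edgeR adjusted p = 0.0104). FBLN1 ran the other way without passing (log2 difference -0.29, edgeR adjusted p = 0.802). CD68 (most of the leukocyte sum), COL1A2, CD44, EGFR and AXL were higher with MSC, as F3 and PLAT were, while PECAM1 and S100A4 were lower. The endothelial sum overlapped between the groups. The fibroblast and MSC sum overlapped only through M7 (16.6 CPM). It was 23.4 CPM in M1, 26.4 in M6, 32.4 in M10 and 116.6 in M15, against at most 21.0 CPM without MSC. The part of these markers in the results was not tested. In bulk tumours, fewer cells of a type and less RNA per cell cannot be told apart, and without total tumour RNA neither can RNA abundance and ribosome association.

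The sequence before the start of 7 of the 9 genes was held in the RefSeq promoter table (GRCh38.p14), and the windows of tissue factor, its inhibitor and urokinase are shown because these proteins start clotting, block that start and activate plasminogen. Each is part of the 250 bases before an annotated start, cut where GENCODE 29 places an exon of the gene, and capitals mark every match, on either strand, to the motifs searched: AP-1 TGANTCA, NF-kB GGANNTTCC, SP1 GGGCGG, EGR1 GCGGGGGCG, ETS CCGGAA and the hypoxia element ACGTG. F3 lies at chr1:94541801-94542009, minus strand, TFPI at chr2:187554493-187554685, minus strand, and PLAU (the downstream of its annotated starts) at chr10:73910882-73911103, plus strand.
F3: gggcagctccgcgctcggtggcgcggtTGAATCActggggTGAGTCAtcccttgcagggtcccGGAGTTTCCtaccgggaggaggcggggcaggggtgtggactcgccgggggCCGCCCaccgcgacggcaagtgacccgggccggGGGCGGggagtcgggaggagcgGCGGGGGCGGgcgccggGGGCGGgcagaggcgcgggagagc
TFPI: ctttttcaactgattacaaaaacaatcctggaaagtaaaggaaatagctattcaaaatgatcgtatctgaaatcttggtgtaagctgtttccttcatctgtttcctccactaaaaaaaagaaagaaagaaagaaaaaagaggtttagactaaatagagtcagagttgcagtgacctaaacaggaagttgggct
PLAU: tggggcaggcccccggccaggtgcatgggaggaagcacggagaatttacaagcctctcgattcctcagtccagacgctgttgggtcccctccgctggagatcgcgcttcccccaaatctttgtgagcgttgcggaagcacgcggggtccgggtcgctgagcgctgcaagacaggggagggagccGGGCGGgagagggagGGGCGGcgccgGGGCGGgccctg

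The F3 window held 2 AP-1 matches at 223 and 210 bases before the start, 1 NF-kB match at 187 bases, 4 SP1 matches and 1 EGR1 match, of which 1 SP1 match overlaps the EGR1 match. No match was found in the 250 bases of the TFPI window, which are 38.4% G and C against 78.0% in F3. The downstream PLAU window held 3 SP1 matches and the upstream one held none of the 6 motifs. Over all 9 windows of the 7 genes, AP-1 letters occurred in F3, TFPI2 and PLAUR, and NF-kB letters in F3. Of 35116 windows of this length in the table, 6.57% held the AP-1 letters, 3.84% NF-kB, 42.6% SP1, 4.72% EGR1, 14.5% ETS and 18.5% the hypoxia element. A match is a run of letters and not a binding site, and its absence says only that these letters are not in the window.

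Tissue factor RNA was 2.17-fold higher in tumours with MSC, and tissue plasminogen activator RNA was 1.85-fold higher, while RNA of the other 7 genes overlapped between the groups. Across all 13458 genes tested, 4.18% were called higher with MSC, 3.6% lower and 7.78% in either direction (quasi-likelihood test of edgeR, p adjusted by Benjamini-Hochberg, threshold 0.05). These are 563 genes higher and 484 lower, and with a correction for GC content and length 350 higher and 521 lower. Of the 9 genes, 2 were called higher (F3 and PLAT) and 0 lower, and nothing is read from this share because the same comparison chose them. At an unadjusted p under 0.05 there were 4 higher and 0 lower, and DESeq2 and limma-voom each called 2 higher and 0 lower. Over all 13458 genes DESeq2 called 856 higher and 790 lower, and limma-voom 403 higher and 289 lower. The share of all genes at the unadjusted threshold is not given here. Nothing is read from counts at that threshold, also in the lists below. In 5.13% of all tested genes every tumour with MSC was above every tumour without MSC, and in 4.87% every one was below. Among the 9 genes this held for 2, upwards. The median log2 difference (with MSC minus without MSC) was 0.15 over the 9 genes and 0.01 over all tested genes.

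F3 was at 122.8 CPM in M1, 85.9 in M6, 81.8 in M7, 87.7 in M10 and 80.4 in M15, against 45.5 CPM in A9, 40.2 in A11, 30.4 in A12 and 52.4 in A13. The lowest tumour with MSC was 1.53 times the highest tumour without MSC, so the groups were apart, and M1 was the highest of all. The mean was 91.7 ± 17.6 CPM with MSC (SD, n = 5) and 42.1 ± 9.28 CPM without MSC (SD, n = 4), a log2 difference of 1.12 ± 0.15 (SE). Without any 1 tumour in turn the F3 log2 difference stayed between 0.99 and 1.24.

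**Figure D1:**
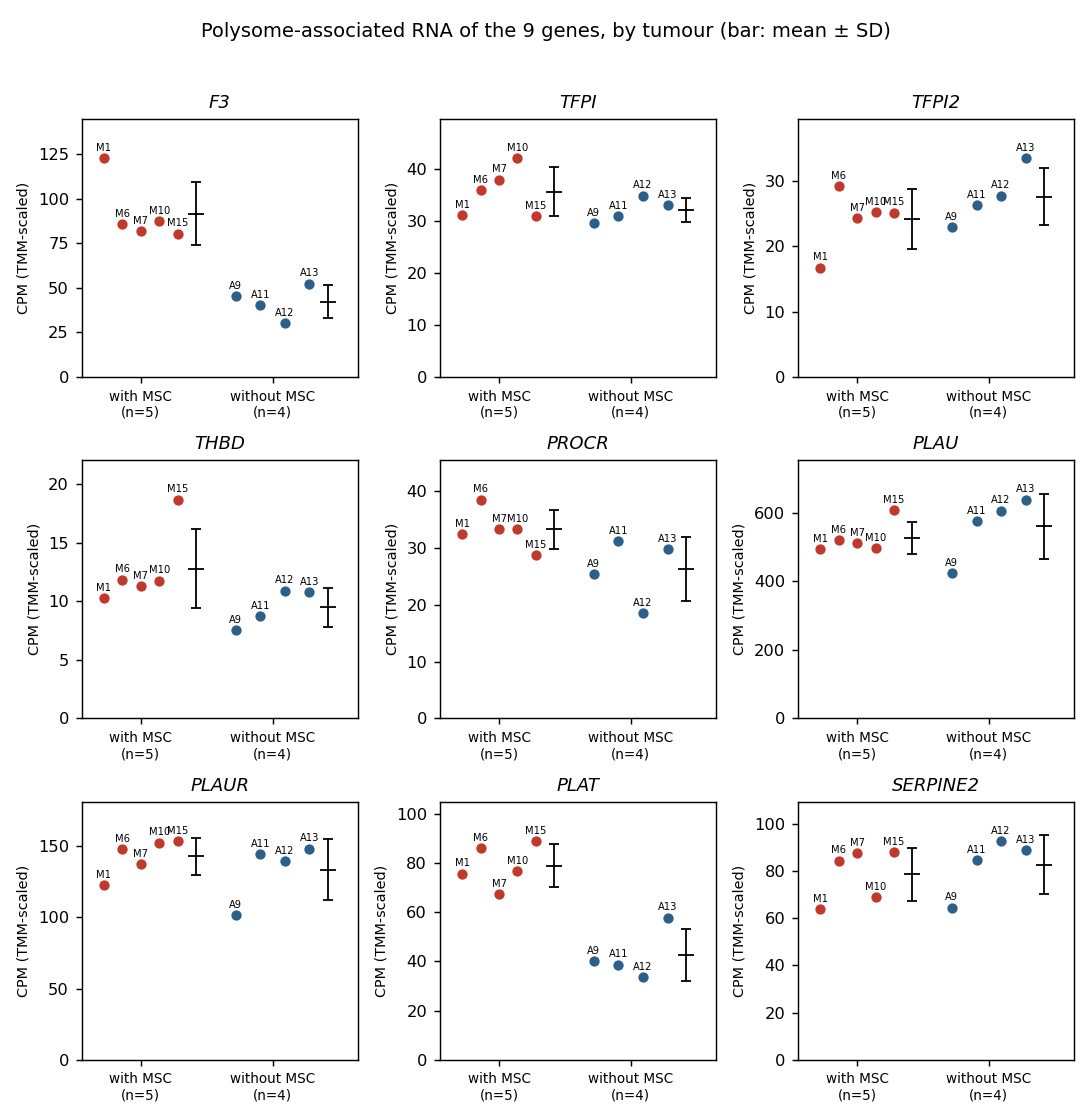
CPM of each of the 9 genes (vertical axes from 0) in the 5 tumours with MSC and the 4 without; each point is a tumour, and the bar gives mean ± SD. F3 and PLAT are the panels in which every tumour with MSC lies above every tumour without MSC.

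Neither Kunitz-type inhibitor passed the test. TFPI, the main inhibitor of the tissue factor complex, was at 30.9 to 42.0 CPM with MSC and at 29.6 to 34.8 CPM without MSC, a log2 difference of 0.15 ± 0.12 (SE). TFPI2, a related secreted inhibitor that acts mainly on plasmin and trypsin-like proteases, was at 16.8 CPM in M1 and 24.3 to 29.3 CPM in the other tumours with MSC. Without MSC it was at 22.9 to 33.5 CPM, for a log2 difference of -0.19 ± 0.15 (SE), which was -0.09 without M1 or without A13. The ranges of both genes overlapped between the groups. In GENCODE 29, 44 exon bases of TFPI2 overlap GNGT1 on the other strand.

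Within a tumour, the ratio of F3 counts to TFPI counts was 3.96 in M1, 2.39 in M6, 2.16 in M7, 2.09 in M10 and 2.60 in M15, against 1.54 in A9, 1.30 in A11, 0.874 in A12 and 1.59 in A13. Every tumour with MSC had the higher ratio, also without M1. The ratio of F3 to TFPI2 averaged 4.05 ± 1.84 with MSC and 1.54 ± 0.363 without MSC (SD, n = 5 and n = 4), and the 2 groups did not overlap. In M1 this ratio was 7.32, since M1 was at once the highest for F3 and the lowest for TFPI2. These ratios are of counts not divided by length, so they are not ratios of molecules, and they rest on the comparison that chose the genes.

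The receptors of the protein C pathway were somewhat higher on average with MSC, without passing the all-gene test. THBD was at 10.3 CPM in M1, 11.9 in M6, 11.3 in M7, 11.8 in M10 and 18.7 in M15, against 7.54 CPM in A9, 8.73 in A11, 10.9 in A12 and 10.8 in A13. M15 was far above the rest and is also the tumour with the high fibroblast markers. The THBD log2 difference was 0.43 ± 0.18 (SE), and 0.25 without M15. The part of carry-over from other cells in the THBD value was not tested. Of the endothelial markers, CDH5 and VWF were at or under 0.571 CPM in all tumours, whereas ROBO4, PECAM1 and TIE1 were above 1 CPM in every tumour. PROCR was at 28.8 to 38.6 CPM with MSC and at 18.6 to 31.3 CPM without MSC, with the lowest value in A12. Its log2 difference was 0.34 ± 0.14 (SE), and 0.20 without A12.

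Of the plasminogen activators, PLAT differed between the groups and PLAU did not pass. PLAT was at 75.6 CPM in M1, 85.9 in M6, 67.3 in M7, 76.6 in M10 and 88.9 in M15, against 40.1 CPM in A9, 38.7 in A11, 33.7 in A12 and 57.8 in A13. The groups were apart, by a narrow margin between M7 and A13. The mean was 78.9 ± 8.65 CPM with MSC (SD, n = 5) and 42.6 ± 10.5 CPM without MSC (SD, n = 4), a log2 difference of 0.89 ± 0.14 (SE). Leaving out 1 tumour in turn gave a PLAT log2 difference of 0.79 to 1.07.

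PLAU was the most abundant of the 9 genes, at 494.4 to 608.2 CPM with MSC and 423.8 to 638.9 CPM without MSC. M15 was the highest with MSC and A9 the lowest of all. The PLAU log2 difference was -0.09 ± 0.12 (SE), between -0.20 without A9 and -0.02 without A13. In GENCODE 29, C10orf55 overlaps 771 exon bases of PLAU on the other strand and is in the count tables, so reads there may be lost or shared. The receptor PLAUR was at 122.6 to 153.7 CPM with MSC and at 101.9 to 148.4 CPM without MSC, a log2 difference of 0.10 ± 0.12 (SE), which turned to -0.01 without A9. SERPINE2, the inhibitor of both activators and of thrombin, was at 63.8 to 88.0 CPM with MSC and at 64.4 to 92.6 CPM without MSC, a log2 difference of -0.07 ± 0.12 (SE). A9 was the lowest of the tumours without MSC for PLAU, PLAUR and SERPINE2, and also for TFPI, TFPI2 and THBD. A12 was the lowest of them for F3, PROCR and PLAT. A9 had the largest gene total of all tumours (65275226 counts), and the part of depth was not tested.

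Ratios of urokinase to its partners were also taken within tumours. PLAU counts were 6.06 to 7.61 times the PLAT counts in tumours with MSC, and 10.6 to 18.0 times in tumours without MSC. The groups did not overlap in this ratio, with A12 the highest. PLAT passed (log2 difference 0.89) and PLAU did not (-0.09), so the ratio restates PLAT and rests on the comparison that chose the genes. Counts were not divided by length here either, so these are not ratios of molecules. The ratio of PLAU to PLAUR averaged 3.70 ± 0.318 with MSC and 4.20 ± 0.166 without MSC and overlapped between the groups, and that of PLAU to SERPINE2 averaged 6.78 ± 0.775 with MSC and 6.78 ± 0.299 without MSC (SD, n = 5 and n = 4).

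**Figure D2:**
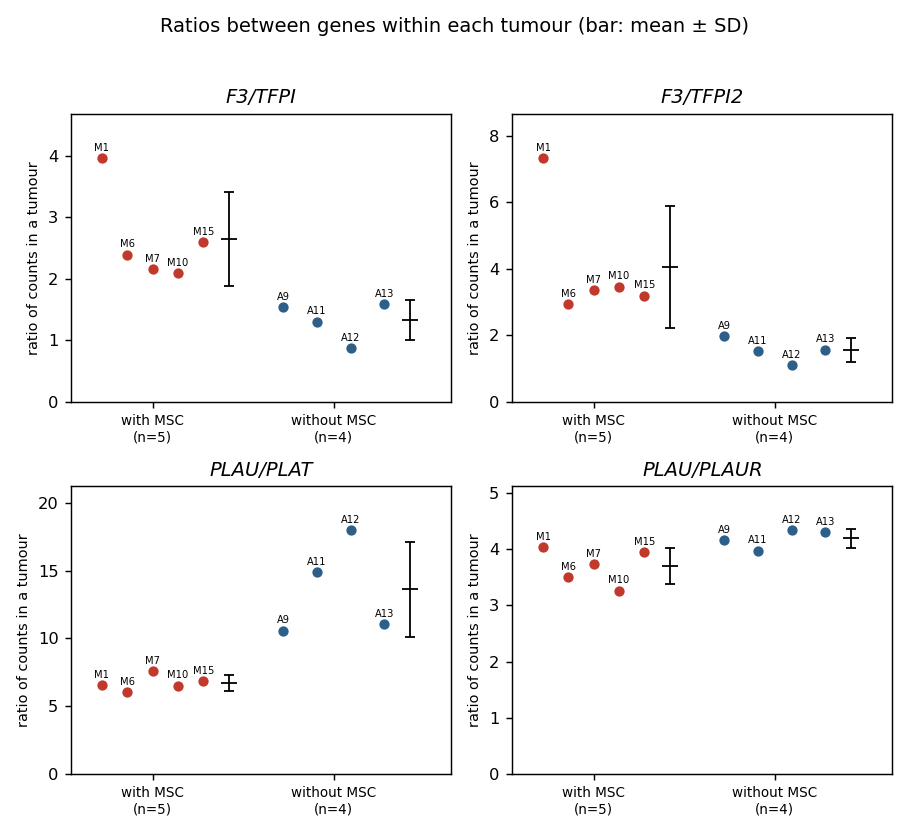
Ratios of counts between pairs of genes within a tumour (vertical axes from 0), 1 point per tumour, with mean ± SD for the 5 tumours with MSC and the 4 without. F3 over TFPI and over TFPI2 is higher in every tumour with MSC. PLAU over PLAT is lower in every tumour with MSC, and PLAU over PLAUR overlaps between the groups. Counts are not divided by length, and the ratios with F3 or PLAT rest on the comparison that chose the genes.

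Levels of different genes were compared per kilobase of exon, from the exon length in GENCODE 29. PLAU stood highest at a mean of 201.7 CPM per kilobase over all 9 tumours, then PLAUR at 63.1 and F3 at 30.5. SERPINE2 (25.5), PROCR (22.4) and PLAT (22.7) came next, ordered by their mean log2 level. The Kunitz inhibitors TFPI2 (10.4) and TFPI (8.15) followed, and THBD was lowest at 2.76. Neighbours in this order were compared within tumours by an exact two-sided permutation test that flips signs over 9 tumours, with Benjamini-Hochberg adjustment over 8 pairs. The order was set on these same 9 tumours, so the pairs and their direction were not fixed before the test. PLAU over PLAUR, PLAUR over F3, PLAT over TFPI2 and TFPI over THBD held in 9 of 9 tumours each, with log2 differences of 1.68, 1.16, 1.06 and 1.60 (exact permutation adjusted p = 0.00781 for each, raw p = 0.00391, the smallest that 9 tumours can give). The groups are pooled in these values. PLAUR minus F3 was 0.71 with MSC and 1.73 without MSC, and PLAT minus TFPI2 was 1.56 with MSC and 0.44 without MSC. TFPI2 was above TFPI in 8 of 9 tumours, by 0.34 ± 0.28 on the log2 scale (SD, exact permutation adjusted p = 0.025). This order rests on the annotated lengths, 2463 bases for TFPI2 and 4173 for TFPI. Not divided by length, TFPI ranked above TFPI2 (ranks 6 and 8). The neighbours F3 and SERPINE2, SERPINE2 and PROCR, and PROCR and PLAT did not differ beyond their spread over all 9 tumours (exact permutation adjusted p = 0.674, 0.214 and 0.785). For a pair whose order turns with the group this pooled test averages opposite differences: F3 minus SERPINE2 was 0.68 on the log2 scale with MSC and -0.53 without MSC, with F3 higher in 5 of 5 tumours with MSC and in 0 of 4 without MSC. PROCR minus PLAT was -0.21 with MSC and 0.34 without MSC on the log2 scale.

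By group, F3 was at 40.1 ± 7.70 CPM per kilobase with MSC and 18.4 ± 4.06 without MSC, and PLAT at 28.6 ± 3.14 with MSC and 15.4 ± 3.81 without MSC (SD, n = 5 and n = 4). F3 was the gene of rank 3 and PLAT of rank 4 in level per kilobase with MSC, while without MSC they held ranks 5 and 6, below SERPINE2 and PROCR. The ranks of the other 5 genes, PLAU, PLAUR, TFPI2, TFPI and THBD, were the same in both groups. Exon length of the transcripts in these cells was not measured, so ranks of genes with close levels depend on the annotation.

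**Figure D3:**
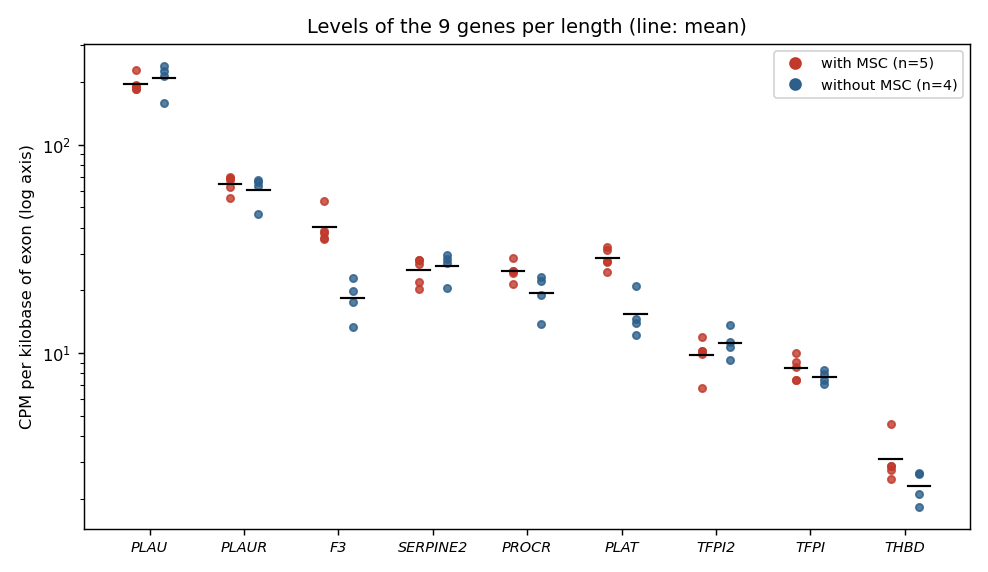
CPM per kilobase of exon (log axis) of the 9 genes, ordered by mean log2 level over all tumours, with 1 point per tumour and a line at each group mean. PLAU lies highest and THBD lowest in both groups, and F3 and PLAT are separated by group.

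The 9 genes varied between tumours of 1 group by different amounts. The SD of log2 CPM within groups, pooled over both groups, was 0.16 for TFPI, 0.20 for PLAU and for PLAUR, and 0.22 for SERPINE2. It was 0.25 for PROCR and for PLAT, 0.27 for TFPI2, 0.29 for F3 and 0.30 for THBD. The median over all tested genes was 0.23. Among the 3464 genes with a mean CPM within a factor of 2 of F3, the SD of F3 was larger than that of 95.2%, and for PLAT the figure was 88.3% of 3593 genes. TFPI was the least variable, above 33.3% of 4154 genes of like level. PROCR, PLAU, PLAUR and PLAT had SDs of 0.15, 0.12, 0.14 and 0.16 with MSC and 0.34, 0.27, 0.25 and 0.33 without MSC. The SDs of TFPI, TFPI2 and THBD were larger with MSC, and none of these differences was tested.

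The other genes of clotting and plasminogen activation were read from pathway lists, drawn up by function but with earlier results of these data known. Of the 38 such genes counted here, 20 were tested, and 2 were called higher with MSC (F2RL1 and VKORC1) and 0 lower (10%, against 7.78% of all tested genes). At an unadjusted p under 0.05, 4 were higher and 3 lower, and DESeq2 called 4 higher and 0 lower and limma-voom 3 higher and 1 lower. Over all 13458 tested genes DESeq2 called 856 higher and 790 lower, and limma-voom 403 higher and 289 lower. The share of all genes at the unadjusted threshold is not given here, so nothing is read from the counts at it. The median log2 difference of the 20 genes was 0.08, and 12 of 20 were positive. A further 18 genes were at or under 1.37 CPM in all tumours and were not tested. They included factor VII (F7), the ligand of tissue factor, and plasminogen itself (PLG), both at 0 counts in all 9 libraries, and SERPINB2, an inhibitor of urokinase, at or under 0.252 CPM.

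The protease-activated receptors, through which clotting proteases signal to cells, were 1 of the lists with a call. F2RL1 (PAR2), which is cut by the tissue factor and factor VIIa complex and by factor Xa, was at 80.5 CPM in M1, 74.4 in M6, 75.2 in M7, 68.7 in M10 and 67.5 in M15. Without MSC it was at 41.6 CPM in A9, 42.6 in A11, 35.4 in A12 and 55.7 in A13, so the groups were apart. Its log2 difference was 0.74 ± 0.12 (SE, edgeR adjusted p = 0.00246), and it was called in each of the 16 other fits. F2R (PAR1), the thrombin receptor, was at 25.3 to 29.6 CPM with MSC and 7.07 to 23.9 CPM without MSC. Its groups did not overlap either, but it did not pass (log2 difference 0.72 ± 0.23, edgeR adjusted p = 0.0711). F2R was called by DESeq2 and limma-voom (adjusted p = 0.0146 and 0.0375), after the GC and length correction (edgeR adjusted p = 0.0391) and without A13 (log2 difference 0.95, edgeR adjusted p = 0.00737). Without A12 its log2 difference was 0.47. F2RL2 was low, at 0.848 CPM with MSC and 0.415 CPM without MSC on average, and F2RL3 was not tested.

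Of 7 other inhibitors of plasminogen activation, 4 were tested and 0 passed, with 0 at an unadjusted p under 0.05 in edgeR and 0 by DESeq2 or limma-voom. SERPINB6, an intracellular serpin, was the most abundant of them at 199.0 ± 21.9 CPM with MSC and 215.3 ± 33.9 CPM without MSC (SD, n = 5 and n = 4), a log2 difference of -0.11 ± 0.12 (SE, edgeR adjusted p = 0.595). SERPINF2, the inhibitor of plasmin itself, was low, at 2.30 to 4.66 CPM with MSC and 3.30 to 6.08 CPM without MSC (log2 difference -0.27 ± 0.25, edgeR adjusted p = 0.542). SERPINI1 and SERPINB8 had log2 differences of 0.07 ± 0.31 and 0.02 ± 0.12 (SE).

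Of the clotting factors and their modifying enzymes, VKORC1, which recycles vitamin K for the carboxylation of clotting factors, averaged 161.8 ± 18.4 CPM with MSC and 116.9 ± 18.2 CPM without MSC (SD, n = 5 and n = 4). Its log2 difference was 0.47 ± 0.12 (SE, edgeR adjusted p = 0.0223). The VKORC1 call was lost without M1, M6, M10, A9 or A12 (edgeR adjusted p up to 0.116). GENCODE 29 places 2 other genes over its exons, neither of which is in the count tables. F13A1, the fibrin crosslinking factor, averaged 1.90 CPM with MSC and 3.48 CPM without MSC (log2 difference -0.88 ± 0.31, edgeR adjusted p = 0.0873), and passed in edgeR without M15 (adjusted p = 0.0241). M15, at 3.48 CPM, was the highest for F13A1 among the tumours with MSC. No gene passed among the 4 other anticoagulants tested, of which 1 was higher and 1 lower at an unadjusted p under 0.05; DESeq2 called 1 higher and limma-voom 0. PROS1, the cofactor of protein C, had a log2 difference of 0.45 ± 0.15 (edgeR adjusted p = 0.0595, DESeq2 adjusted p = 0.0353), and ANXA5, which covers exposed phosphatidylserine, one of -0.27 ± 0.12 (edgeR adjusted p = 0.157).

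No gene passed among the 4 tested plasminogen receptors and related genes, with 0 at an unadjusted p under 0.05 and 0 by DESeq2 or limma-voom. The annexin A2 complex was abundant in both groups, with ANXA2 at 1835 ± 190.8 CPM with MSC and 1923 ± 264.8 CPM without MSC, and S100A10 at 1369 ± 223.8 CPM with MSC and 1481 ± 142.2 CPM without MSC (SD, n = 5 and n = 4). LRP1, the endocytic receptor that clears activators bound to their inhibitors, was at 34.6 CPM in M15 and 12.4 to 17.3 CPM in the other tumours with MSC, against 7.05 to 13.4 CPM without MSC. Its log2 difference was 0.65 ± 0.31 (edgeR adjusted p = 0.220), and 0.28 without M15. ENO1, a glycolytic enzyme that also binds plasminogen at the surface, had a log2 difference of 0.21 ± 0.13 (edgeR adjusted p = 0.345).

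**Figure D4:**
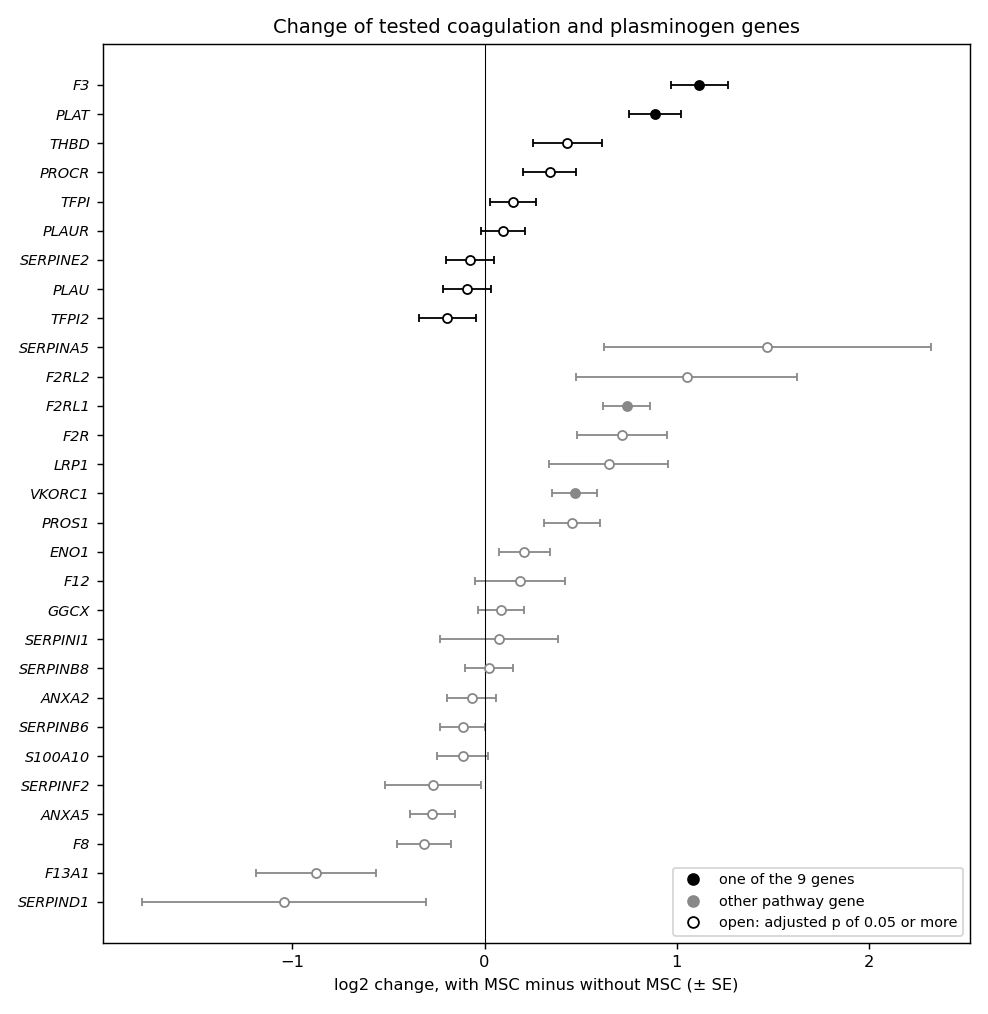
Log2 difference (with MSC minus without MSC, ± SE) of the 9 genes (black) and the 20 other tested genes of the lists (grey), filled where the edgeR adjusted p was under 0.05. F3, PLAT, F2RL1 and VKORC1 are filled, all to the right of 0.

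Transcription factors with known sites in the F3 or PLAU promoter were read as a separate list. Of 12 tested, 0 passed in edgeR, DESeq2 called 1 higher and limma-voom 0. At an unadjusted p under 0.05, 3 were higher and 0 lower. The share of all tested genes at that threshold is not given here, so nothing is read from this count. The log2 difference was positive for 10 of the 12, with a median of 0.23 against 0.01 over all tested genes. This list too was drawn up with earlier results of these data known, so nothing is read from the count of signs. FOS, a subunit of AP-1, had a log2 difference of 1.02 ± 0.51 (edgeR adjusted p = 0.267), with overlapping groups. EGR1, an early response factor, was at 27.0 CPM in M1, 63.1 in M6, 61.3 in M7, 38.5 in M10 and 35.2 in M15, against 26.8 to 31.5 CPM without MSC. M1 was the lowest tumour with MSC for EGR1. A link of these factors to F3 or PLAU was not tested. The EGR1 log2 difference was 0.57 ± 0.21 (edgeR adjusted p = 0.103, DESeq2 adjusted p = 0.0355), and without M1 it was 0.71 and passed (edgeR adjusted p = 0.0332). ETS1 had a log2 difference of 0.23 ± 0.10 (edgeR adjusted p = 0.153).

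Genes whose log2 CPM followed F3 most closely over the 9 tumours were NTN4 (Pearson r = 0.983), a secreted netrin, TECR (0.975), SORBS3 (0.972), the receptor F2RL1 (0.970) and HEYL (0.967). For PLAU they were the collagen COL12A1 (Pearson r = 0.951), SLC35A2 (0.926), ORAOV1 (0.907), RNF31 (0.902) and SPG7 (0.897). These r describe likeness over tumours that share the 2 groups, and are the highest of all tested genes by choice. Of the genes like F3, NTN4, TECR, SORBS3 and F2RL1 were called higher with MSC in the same fit, while HEYL had an edgeR adjusted p of 0.0941 and the 5 genes like PLAU had edgeR adjusted p of 0.553 to 0.980.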

How the data were processed

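Per the labels' protocols, polysome-associated RNA was pulled down from whole tumours with anti-GFP beads and made into libraries with a TruSeq RNA kit. The authors deposited raw counts, 1 whole number for each gene symbol. Tools listed in the submitters' processing notes are HTSeq, TopHat 1.4.0 and CASAVA 1.8.1, with hg19 as the build. The sources used here give no annotation, no HTSeq settings and no step for mouse reads. Reads of no gene, 10.2 to 12.1% of all counts, were left out.

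Tests used edgeR 4.0.16 under R 4.3.3 (filterByExpr, TMM, glmQLFit with robust=TRUE, Benjamini-Hochberg adjustment over 13458 genes, threshold 0.05). The fit was also run on simulated counts, whose outcome is not given here and supports nothing. CPM used TMM-scaled library sizes, and log2 CPM for spread and likeness a prior count of 2. SE is the size of the log2 change over the square root of F. The members and lists were chosen with earlier results of these data known. All 9 members were named, with called list genes, up to 2 genes of smallest p per list, 5 fixed genes and RPL10A. One list gene stayed in the all-gene fit but is not reported here, and counts over the lists leave it out. Any further gene was picked for mention with its values known. No 2 libraries of a group agreed within sampling noise (chi-square per degree of freedom at least 23.2). Alternatives were DESeq2 1.42.0 and its size factors, limma-voom with sample quality weights (limma 3.58.1), library size only, no filter, and left-out tumours. Every limma-voom result given here used these weights. A GC and length correction (splines, 88.3% of genes matched) was added after seeing the data. Overlaps and lengths came from GENCODE 29.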

Additional observations from a re-analysis of the deposited data

Results flagged for a closer look

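Of 21 genes checked in each group, 6 values lay far from the rest of their group, and about 5% of such checks do so by chance (42 checks). Among tumours with MSC, M1 was high for F3 at 122.8 CPM (next 87.7), and M15 was high for THBD at 18.7 CPM (next 11.9), for PLAU at 608.2 CPM (next 520.4) and for LRP1 at 34.6 CPM (next 17.3). Among tumours without MSC, A9 was low for LRP1 at 7.05 CPM (next 13.1), and A12 was low for EGR1 at 26.8 CPM (next 31.3). M15 is the tumour with the highest fibroblast and MSC markers (116.6 CPM in sum), and their part in its values was not tested.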

How the results depend on the processing

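Of 144 refits of the 9 genes, 143 kept the direction and the side of the threshold. The exception was PLAUR, whose log2 difference ran from -0.014 (without A9) to 0.15 when 1 tumour was left out. F3 and PLAT were called in all 16 alternatives each, with log2 differences of 0.99 to 1.24 and 0.74 to 1.07. The counts over all genes moved more: 856 higher and 790 lower by DESeq2, 289 lower by limma-voom, 201 higher and 101 lower without M15 and A12 together, and 350 higher and 521 lower after the GC and length correction, against 563 and 484. Leaving out 1 tumour gave 151 to 985 higher (lowest without A12, highest without A13) and 94 to 863 lower (the same tumours). The 2 calls among other pathway genes became 4 by DESeq2, by limma-voom and after the GC and length correction, 1 without M1, M6, M10, A9 or A12, and 4 without A13. The order of levels kept 6 of 9 ranks with either group alone and 3 without division by length. The cause of these shifts was not tested. No paired analysis was possible because the groups share no replicate numbers. Genes under about 1 CPM are limited by depth.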
